A study of Mus musculus with 23 samples.

Results

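The factors that start, extend and end protein synthesis on cytoplasmic ribosomes were taken by name from the deposited gene tables. Every symbol that begins with Eif, Eef, Etf1 or Gspt and holds no hyphen was kept, apart from the eIF2 kinases, Eif4ebp1, Eif4ebp2, Eef2k, Eef1e1, the methyltransferases of these factors and the sex-linked Eif2s3 pair. That gave 58 of 38924 genes. By role, 5 belong to the eIF1 and eIF1A group, 8 to eIF2, its exchange factor eIF2B and Eif5, 2 are Eif2a and Eif2d, 14 are eIF3 subunits, 14 belong to the eIF4 group, 4 are eIF5A, eIF5B and eIF6 genes, 5 belong to eEF1, 1 is Eef2, 1 is the selenocysteine factor Eefsec and 3 are release factors. The last, Eif2c5, is annotated as a long intergenic RNA and not as a factor. The choice went by name, though earlier results of these data were known when it was made.

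The libraries came from RiboTag precipitates of spinal cord taken from mice aged 2 weeks, on a strain background labelled B6.CgxB6.129. Every mouse, controls included, carried 1 copy of an Rpl22 allele whose haemagglutinin (HA) tag is made only where Cre recombinase acts, and ChAT-Cre, driven by the choline acetyltransferase gene, confines that to cholinergic cells, motor neurons among them. GarsC201R/+ mice carry 1 mutant copy of the glycyl-tRNA synthetase gene Gars and serve as a model of a dominant inherited neuropathy, studied here before disease onset. The groups were mutant Cre (GarsC201R/+ carrying ChAT-Cre, 6 libraries), wild-type Cre (Gars+/+ carrying ChAT-Cre, 5), mutant no-Cre (GarsC201R/+ lacking Cre, 6) and wild-type no-Cre (Gars+/+ lacking Cre, 6). Without Cre no tagged ribosomes are made, so these precipitates hold background RNA. Sex was not stated, and nothing in the labels says that libraries of a group came from separate animals, so each p-value here rests on the variation among libraries, which may be technical.

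Initiation begins when eIF2 brings the initiator tRNA to the small ribosomal subunit, with eIF1, eIF1A and eIF3 on the same subunit, and when the cap-binding eIF4 proteins recruit the mRNA. Elongation runs on eEF1A, which delivers aminoacyl-tRNA, and eEF2, which moves the ribosome along by a codon, and the release factors end it at a stop codon. Vertebrates have a pair of eEF1A proteins. Eef1a1 is used by nearly all cells, whereas Eef1a2 replaces it in neurons and muscle after birth, and mice that lose Eef1a2 develop motor neuron degeneration.

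Total expected counts per library ran from 9031654 to 19671869, but ribosomal RNA-like genes held 50.6% to 95.6% of them, and the factors held 0.324% to 1.11% of the rest. The ribosomal RNA-like share was 53.0% to 75.3% in mutant Cre and 50.6% to 89.0% in wild-type Cre libraries. Replicate 5 of the mutant no-Cre group was the shallowest, with 3820 counts over all 58 factors. The 7 cholinergic and motor neuron markers matched in the files, Chat among them, summed to 113 to 468 CPM (counts scaled to a common library total) in mutant Cre and 363 to 511 CPM in the wild-type Cre group, against 18.0 to 23.8 CPM in mutant no-Cre and 18.2 to 79.0 CPM in wild-type no-Cre libraries, where replicate 2 was the highest. Of these markers Lhx3 was at 0 in every mutant no-Cre library. The 8 oligodendrocyte markers summed to 905 to 6989 CPM in mutant Cre (median 1971) and 606 to 3328 CPM in wild-type Cre (median 782), against 6843 to 14146 CPM in mutant no-Cre and 7175 to 12410 CPM in wild-type no-Cre libraries. Within the Cre groups, replicates 4 and 6 of mutant Cre and replicate 2 of wild-type Cre were the highest in these markers, and none of the 8 was at 0 in any group. The part of these markers and of depth in the results that follow was not tested, except where a fit with them as a covariate is given. In such bulk precipitates fewer cells of a type and less RNA per cell cannot be told apart.

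The first comparison asks which factor mRNAs the tagged ribosomes of cholinergic cells carried above background. Averaged over genotypes, 34 of the 55 factors that passed the filter on low counts were higher with Cre than without and 5 were lower at an adjusted p under 0.05, a share of 70.9%, where 56.8% of all 14468 genes tested were called, 22.1% higher and 34.7% lower. The median log2 fold change of the 55 factors was 0.59, against −0.28 for all genes tested. In the mutant alone, 13 factors were higher and 2 lower with Cre (27.3% of 55, against 33.3% of all genes called, 14.1% higher and 19.2% lower). In the wild type alone, 26 were higher and 3 lower (52.7%, against 45.9% of all genes, 20% higher and 25.9% lower). Scaling by library totals alone, which moves the median of all genes to 0.39 in the averaged effect, to 1.13 in the mutant and to −0.08 in the wild type, gave 30 higher and 0 lower in the average, 31 and 0 in the mutant and 1 and 0 in the wild type. Under that scaling 32.7% of all genes were called in the average, 27.8% in the mutant and 7.28% in the wild type. The mutant count depended on single libraries, with 8 factors higher without mutant no-Cre replicate 3 and 24, 26 and 24 without mutant no-Cre replicates 1, 4 and 5. Calls over all genes moved as well. With all mutant libraries 14.1% of all genes were higher. Without replicate 3 the share was 12.7%, and without replicates 1, 4 and 5 it was 17.9%, 19.3% and 20.3%. With the oligodendrocyte markers as a covariate, 5 of 55 factors (Eef1a2, Eif1b, Eif3h, Eif3l and Eif5a) stayed past the threshold in the average. In the mutant 3 stayed and in the wild type 0, and all were higher. Of all genes, 12.2% were called in that fit of the average, 9.64% in the mutant and 9 of 12485 genes in the wild type. The marker sums did not overlap between wild-type Cre (at most 3328 CPM) and wild-type no-Cre libraries (at least 7175 CPM). In the mutant they barely did (at most 6989 CPM against at least 6843 CPM). The covariate thus largely repeats the Cre groups, and a Cre call lost in these fits, here or for a single gene below, cannot tell Cre from marker content. The leading number of a library's title, whose meaning is not stated, was used as a possible batch. With it as a block, among libraries whose number occurs in more than 1 group, 16 of the 39 averaged calls no longer passed, those of Eef1d, Eif1ax, Eif2b1, Eif2b2, Eif2b3, Eif2s1, Eif3f, Eif3j2, Eif4a1, Eif4a3, Eif4b, Eif4e, Eif5, Eif5b, Eif6 and Etf1. Of all genes, 44.9% were called in that fit, against 56.8% without the block. In the mutant alone, only title number 18405 occurs with and without Cre. It holds mutant Cre replicates 4 and 6 and mutant no-Cre replicate 2. That mutant fit therefore has no block, and its calls are not given.

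**Figure D1:**
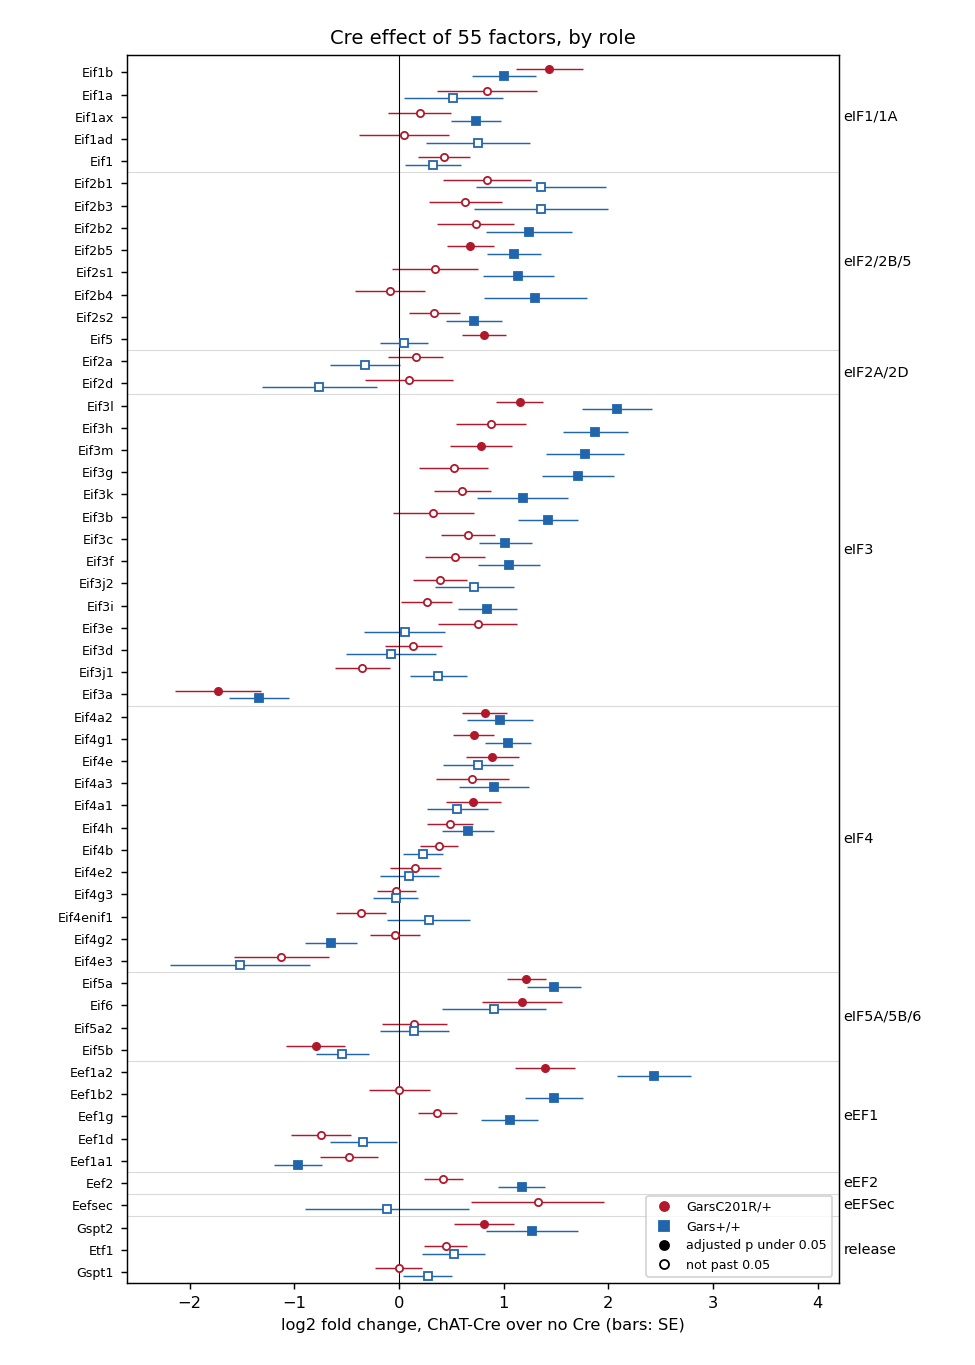
The log2 fold change of each of the 55 tested factors, Cre over no Cre, is drawn for the mutant (circles) and the wild type (squares) with its standard error, grouped by role, and filled where the adjusted p was under 0.05. Most points of the eIF3 and eIF2 groups lie right of 0, whereas Eif3a, Eif4e3, Eif5b, Eef1d and Eef1a1 lie left of 0 in both genotypes.

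The paralogs of the elongation factor eEF1A moved in opposite directions with Cre. Eef1a2 (chromosome 2, 181147653 to 181157014, minus strand, GENCODE annotation of GRCm38) had 30.9 to 68.3 CPM in mutant Cre libraries (median 51.7) and 133, 48.9, 92.4, 90.4 and 86.7 CPM in the wild-type Cre group, against 8.79 to 25.4 CPM in mutant no-Cre (median 14.9) and 8.22 to 29.2 CPM in wild-type no-Cre libraries (median 13.3). Every Cre library was above every no-Cre library. Its average log2 Cre effect, the largest rise among the factors, came to 1.90 (SE 0.23, adjusted p = 1.22e-07), with 1.40 (SE 0.28, adjusted p = 0.00148) in the mutant and 2.44 (SE 0.35, adjusted p = 5.82e-05) in the wild type. With the oligodendrocyte covariate the average was 1.18 and still passed.

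Eef1a1 (chromosome 9, 78478449 to 78489151, minus strand) was lower with Cre. It had 115 to 295 CPM in mutant Cre (median 157) and 96.9, 121, 111, 143 and 98.6 CPM in the wild-type Cre group, against 135 to 256 CPM in mutant no-Cre (median 219.6) and 164 to 318 CPM in wild-type no-Cre libraries (median 194). The wild-type Cre libraries all lay below the wild-type no-Cre libraries, whereas the mutant groups overlapped, with replicate 6 of mutant Cre, at 295 CPM, the highest of its group. Processed copies of Eef1a1, Eif1, Eif4a1 and Eif5a lie elsewhere in the genome, so reads of these genes may be shared with them and their counts are uncertain to that extent. Its average Cre effect was −0.73 (SE 0.18, adjusted p = 0.00113), with −0.48 (SE 0.28, adjusted p = 0.201) in the mutant and −0.96 (SE 0.23, adjusted p = 0.00302) in the wild type. Under the oligodendrocyte covariate and under library totals the average no longer passed the threshold, at −0.04 and −0.07.

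Many mRNAs for elongation factors belong to the terminal oligopyrimidine (TOP) class, which begins with C and a run of pyrimidines and whose translation responds to mTOR signalling. The start sites of the 6 listed TOP factors with a RefSeq entry are shown to set the eEF1A pair beside the rest of its class. They run from 10 bases before to 20 bases from the start of the RefSeq transcript on GRCm38.p6, and capitals mark the longest run that opens with C and continues with at least 4 bases that are C or T, read on the transcribed strand only.
Eef1a1, minus strand of chr9:78481705-78481734: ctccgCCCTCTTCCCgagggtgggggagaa
Eef1a2, minus strand of chr2:181156996-181157025: cctggtctgcgttctcgctcactggttctc
Eef1b2, plus strand of chr1:63176821-63176850: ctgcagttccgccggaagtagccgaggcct
Eef2, plus strand of chr10:81176621-81176650: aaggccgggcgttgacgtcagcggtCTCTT
Eif3f, plus strand of chr7:108934405-108934434: tctaggCTCTCTCTCTTTCTCggcaagatg
Eif4b, plus strand of chr15:102073763-102073792: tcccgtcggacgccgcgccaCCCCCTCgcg
A run spans the annotated start of Eef1a1 and of Eif3f, lies further in for Eef2 and Eif4b, and is absent from the windows of Eef1a2 and Eef1b2. Such a run stood in the window of 13 of the 43 factors with an entry (30.2%) and of 35.8% of all 32851 RefSeq windows. Annotated starts can miss the first base of an mRNA, so a missing run says only that these letters are not in this window.

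A ratio within a library does not depend on library scaling. As the log2 ratio of CPM per kilobase, with 0.1 added to each, Eef1a2 over Eef1a1 was −2.33, −2.18, −1.92, −3.52, −1.99 and −4.06 in mutant Cre libraries and −0.36, −2.11, −1.08, −1.47 and −1.002 in wild-type Cre libraries. It lay between −5.46 and −4.14 in mutant no-Cre and between −5.27 and −3.97 in wild-type no-Cre libraries. Per length, Eef1a2 thus made up 14.8% ± 6.46 (SD, n = 6) of the summed eEF1A mRNA level in mutant Cre and 30.8% ± 9.21 (n = 5) in wild-type Cre, against 3.87% ± 1.38 and 4.00% ± 1.26 (n = 6 each) in mutant and wild-type no-Cre libraries. With Cre the ratio was 2.03 higher in the mutant (exact permutation p = 0.00216, adjusted over 32 ratio comparisons 0.0231) and 3.42 higher in the wild type (exact permutation p = 0.00433, adjusted 0.0231), and in both genotypes the Cre and no-Cre libraries did not overlap. These are the smallest p-values that such groups allow.

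**Figure D2:**
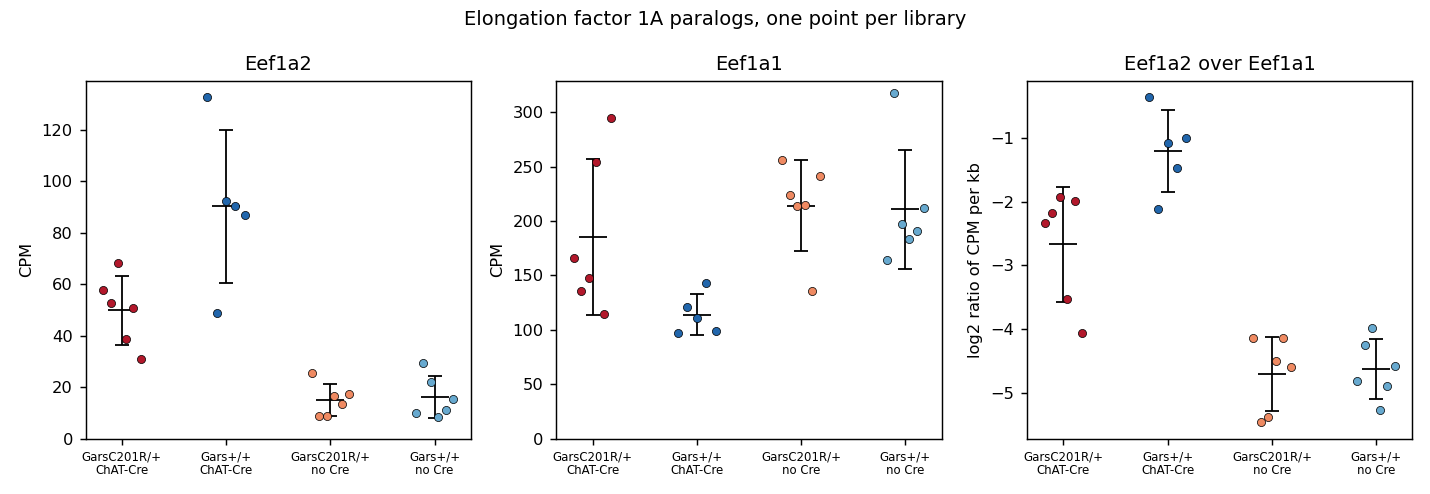
CPM of Eef1a2, CPM of Eef1a1 and the log2 ratio of their CPM per kilobase are plotted with 1 point per library and the mean and SD of each group. The ratio averaged −2.67 in mutant Cre and −1.21 in wild-type Cre, against −4.70 and −4.63 in mutant and wild-type no-Cre libraries.

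Among the other elongation factors, Eef2, the translocase, had 161 to 223 CPM in mutant Cre (median 184) and 277, 169.8, 237, 236 and 242 CPM in wild-type Cre, against 92.2 to 131 CPM in mutant no-Cre and 76.6 to 118 CPM in wild-type no-Cre libraries. All Cre libraries were above all no-Cre libraries, and the average effect was 0.79 (SE 0.14, adjusted p = 2.22e-05). Eef1g and Eef1b2, subunits of the complex that reloads eEF1A with GTP, rose by 0.70 (SE 0.16, adjusted p = 0.000593) and 0.73 (SE 0.20, adjusted p = 0.00316). Eef1d, a further exchange subunit, was lower with Cre, at −0.56 (SE 0.22, adjusted p = 0.0285), a call lost under 19 of 34 alternatives. These include limma-voom, no filter, the fit without ribosomal RNA-like genes and 13 of 23 fits that left out a single library, and the sign turned under library totals and with the title number as a block. Eefsec stayed at 0.985 to 4.70 CPM in mutant Cre and 0.199 to 3.28 CPM in wild-type Cre, and at most 1.69 and 7.91 CPM in mutant and wild-type no-Cre libraries, with an average effect of 0.59 (SE 0.52, adjusted p = 0.344).

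The eIF3 subunits, which form the scaffold on the small subunit, were mostly higher with Cre. Of the 14, 10 were higher with Cre in the averaged comparison, 1 was lower and 3 did not pass (78.6% called, beside 56.8% of all genes). In the mutant alone 2 were higher and 1 lower (21.4%, below the 33.3% of all genes). In the wild type alone 9 were higher and 1 lower (71.4%, beside 45.9% of all genes). Eif3l had 17.6 to 29.5 CPM in mutant Cre (median 21.8) and 32.9, 19.4, 22.9, 26.9 and 20.4 CPM in wild-type Cre, against 3.94 to 11.1 CPM in mutant no-Cre (median 8.33) and 1.74 to 7.73 CPM in wild-type no-Cre libraries (median 5.78). No library of one kind reached the other, and the average effect was 1.61 (SE 0.20, adjusted p = 1.53e-07). Eif3h and Eif3m, which together with the other PCI and MPN domain subunits build the body of the complex, rose by 1.37 (SE 0.23, adjusted p = 1.72e-05) and 1.27 (SE 0.24, adjusted p = 5.92e-05). Eif3g, an RNA-binding subunit, rose by 1.11 (SE 0.24, adjusted p = 0.000315). The remaining risers, Eif3b, Eif3c, Eif3f, Eif3i, Eif3j2 and Eif3k, had average effects of 0.54 to 0.88. That of Eif3j2 no longer passed without mutant no-Cre replicate 1 or 6, wild-type no-Cre replicate 2 or 4 or wild-type Cre replicate 1.

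Eif3a (chromosome 19, 60761117 to 60790658, minus strand), the largest subunit, was lower. It had 103 to 169 CPM in mutant Cre (median 122) and 93.7, 92.0, 166, 128 and 95.3 CPM in wild-type Cre, against 139 to 756 CPM in mutant no-Cre (median 237) and 173 to 372 CPM in wild-type no-Cre libraries (median 286). The wild-type groups did not overlap, and the mutant groups overlapped. Its average effect was −1.54 (SE 0.26, adjusted p = 1.28e-05), with −1.73 (SE 0.41, adjusted p = 0.00437) in the mutant and −1.34 (SE 0.29, adjusted p = 0.00129) in the wild type. Under library totals, however, the mutant value was 0.26 and the average no longer passed. The annotation places the small nucleolar RNA Snora19 and a microRNA inside Eif3a on the same strand, and reads of such overlapping genes cannot be told apart with certainty here. Small nucleolar RNAs on the same strand also overlap Eef2, Eif4g1, Eif4a2, Eif5 and Eef1b2, so the same limit applies to those genes. Eif3d, Eif3e and Eif3j1 had average effects of 0.02, 0.39 and −0.00, with adjusted p-values of 0.964, 0.238 and 0.992. Eif3j1 and Eif3j2 are close copies, so their counts may be split between them.

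**Figure D3:**
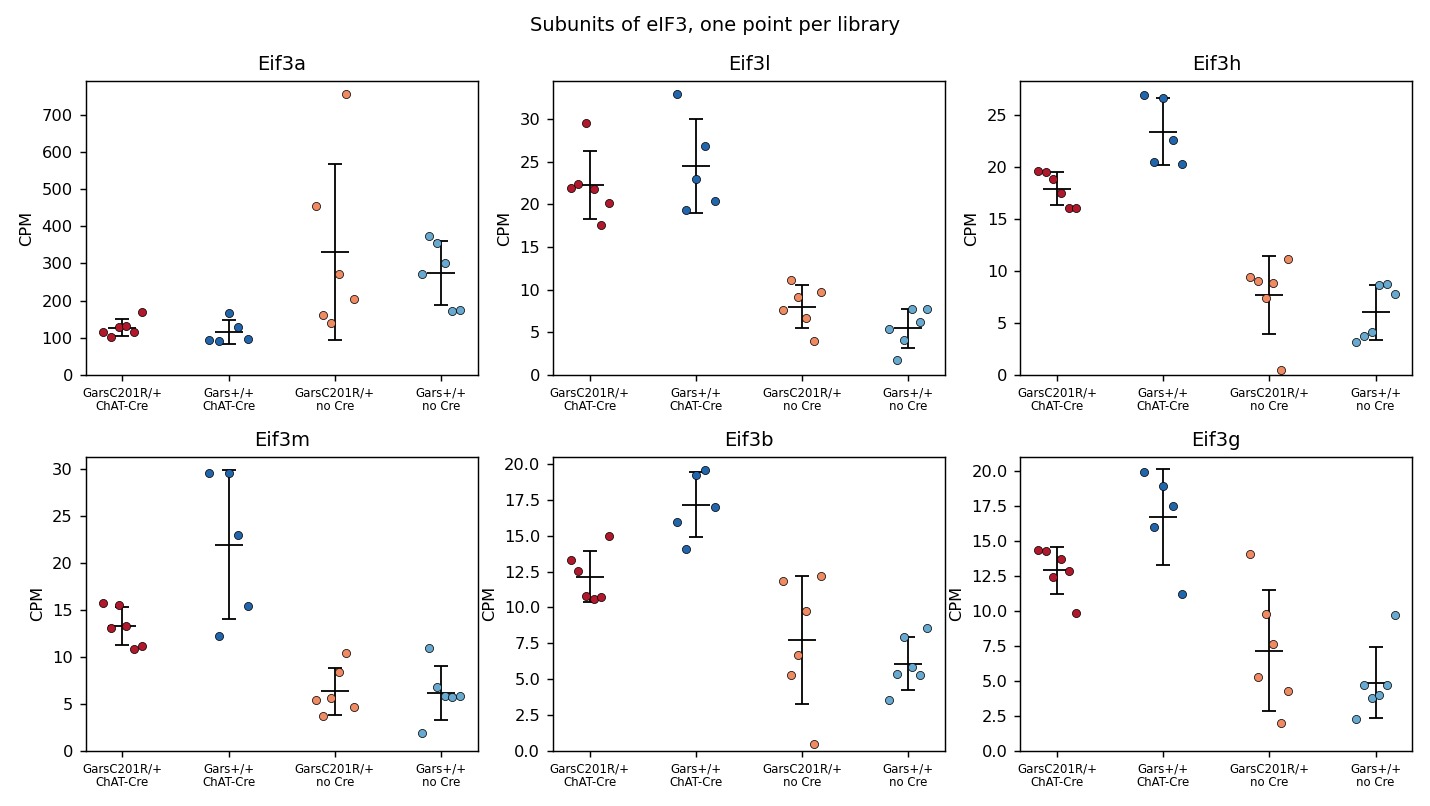
CPM of 6 eIF3 subunits is plotted with 1 point per library and the mean and SD of each group. Eif3l, Eif3h and Eif3m are higher in the Cre libraries, Eif3a is lower in them, and mutant no-Cre replicate 5 gives the highest Eif3a value, 756 CPM.

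In the eIF4 group, which binds the cap and unwinds the mRNA, 7 of 12 tested genes were higher with Cre and 1 was lower. That is a share called of 66.7%, beside 56.8% of all genes. Eif4g1, the scaffold that joins cap and helicase, had 66.4 to 104 CPM in mutant Cre and 92.9, 82.1, 94.2, 102 and 90.8 CPM in wild-type Cre, against 29.5 to 57.2 CPM in mutant no-Cre and 26.9 to 58.3 CPM in wild-type no-Cre libraries. The Cre and no-Cre libraries did not overlap, and the average effect was 0.86 (SE 0.14, adjusted p = 8.20e-06). Its paralog Eif4g3 had an average effect of −0.04 (SE 0.14, adjusted p = 0.833). The log2 ratio of Eif4g3 over Eif4g1 was −0.60 ± 0.17 (SD, n = 6) in mutant Cre and −0.86 ± 0.38 (n = 5) in wild-type Cre, against 0.14 ± 0.37 and 0.24 ± 0.55 (n = 6 each) in mutant and wild-type no-Cre libraries. The difference with Cre was −0.74 in the mutant (exact permutation p = 0.00216, adjusted 0.0231) and −1.09 in the wild type (exact permutation p = 0.00433, adjusted 0.0231), and neither pair of groups overlapped. Computed from the deposited TPM, the mutant difference no longer passed.

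Of the cap-binding genes, Eif4e rose by 0.81 (SE 0.21, adjusted p = 0.00229) and Eif4e2, a homolog that represses translation, had an effect of 0.11 (SE 0.18, adjusted p = 0.598). Eif4e3, the third cap-binding homolog, lay at 0.552 to 2.28 CPM in mutant Cre and 0.199, 2.49, 0.632, 1.92 and 0.234 CPM in wild-type Cre, against 1.63 to 4.92 CPM in mutant no-Cre and 0.805 to 4.47 CPM in wild-type no-Cre libraries. These ranges overlapped, and the average effect was −1.32 (SE 0.40, adjusted p = 0.00663). The helicases Eif4a1 and Eif4a2 rose by 0.62 (SE 0.20, adjusted p = 0.00835) and 0.88 (SE 0.19, adjusted p = 0.000357), and Eif4a3, which acts in the exon junction complex, by 0.79 (SE 0.24, adjusted p = 0.00741). The helicase cofactors Eif4h and Eif4b rose by 0.56 (SE 0.16, adjusted p = 0.00517) and 0.29 (SE 0.12, adjusted p = 0.0458). The Eif4b call was lost under 11 of 34 alternatives, among them library totals, the filter at 5 CPM and leaving out wild-type no-Cre replicate 1, 3 or 4 or wild-type Cre replicate 1, 3 or 5. Eif4g2, an eIF4G homolog that does not bind eIF4E, passed in the wild type alone, at −0.65 (SE 0.25, adjusted p = 0.0391), and its Cre effect differed between the genotypes by 0.74 (SE 0.35, adjusted p = 0.464). Its wild-type call was lost under 10 of 23 alternatives, among them no filter, the title-number block and leaving out wild-type Cre replicate 1, 3, 4 or 5 or wild-type no-Cre replicate 5 or 6. Eif4enif1, the transporter that carries eIF4E into the nucleus, had an average effect of −0.05 (SE 0.23, adjusted p = 0.861). Eif4e1b and Eif4ebp3 did not pass the filter in any comparison, and neither did Eif2c5. Eif4e1b reached at most 0.263 CPM, in a wild-type no-Cre library, Eif4ebp3 at most 0.474 CPM, also in a wild-type no-Cre library, and Eif2c5 had counts in 1 mutant no-Cre library alone.

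Of the genes that load and recharge eIF2, 7 of 8 rose and none fell on average (87.5% called, beside 56.8% of all genes). With the title-number block, however, 5 of the 7, Eif2b1, Eif2b2, Eif2b3, Eif2s1 and Eif5, no longer passed. Eif2s1 and Eif2s2, the alpha and beta subunits of eIF2, rose by 0.73 (SE 0.27, adjusted p = 0.0236) and 0.52 (SE 0.18, adjusted p = 0.0151), the first not past the threshold without wild-type Cre replicate 1. Eif2b5, the catalytic subunit of the exchange factor eIF2B, had 10.8 to 19.2 CPM in mutant Cre and 15.0, 14.6, 16.6, 17.6 and 16.9 CPM in wild-type Cre, against 6.23 to 9.90 CPM in mutant no-Cre and 4.95 to 9.25 CPM in wild-type no-Cre libraries. The Cre and no-Cre libraries did not overlap, and the effect was 0.88 (SE 0.16, adjusted p = 4.82e-05). Eif2b1, Eif2b2 and Eif2b3, further eIF2B subunits, rose by 1.08 (SE 0.38), 0.98 (SE 0.27) and 0.98 (SE 0.35), with adjusted p-values of 0.0166, 0.00281 and 0.0190. Eif2b4 did not pass on average, at 0.59 (SE 0.30, adjusted p = 0.0989), and shares its locus with Snx17 on the opposite strand. Eif5, which makes eIF2 hydrolyse its GTP at the start codon, rose by 0.42 (SE 0.16, adjusted p = 0.0226). Eif2a and Eif2d, which can deliver tRNA without eIF2, had effects of −0.09 (SE 0.20, adjusted p = 0.728) and −0.34 (SE 0.35, adjusted p = 0.413).

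For start codon choice, Eif1b had 24.9 to 38.2 CPM in mutant Cre and 19.9, 22.6, 29.2, 30.4 and 22.0 CPM in wild-type Cre, against 0.985 to 12.1 CPM in mutant no-Cre and 3.68 to 16.2 CPM in wild-type no-Cre libraries. The Cre libraries all lay above the no-Cre libraries, and the effect was 1.21 (SE 0.23, adjusted p = 5.39e-05). Its near-identical paralog Eif1 had 0.36 (SE 0.18, adjusted p = 0.0847). The log2 ratio of Eif1b over Eif1 was 1.28 higher with Cre in the mutant and 0.74 higher in the wild type (exact permutation p = 0.00433 and adjusted 0.0231 in both), and the groups overlapped in the mutant. Mutant no-Cre replicate 5 had a ratio of −6.61 where the others of its group lay between −2.93 and −2.26, and without it the mutant difference was 0.62, still past the threshold. Computed from the deposited TPM, the wild-type difference no longer passed. Eif1ax, on the X chromosome, rose by 0.46 (SE 0.19, adjusted p = 0.0456), a call lost under 10 of 34 alternatives. Among them was a sex-linked covariate, whether a library had Xist above 1 CPM. Others left out mutant no-Cre replicate 6, wild-type no-Cre replicate 2 or 3 or wild-type Cre replicate 1 or 3. Eif1a and Eif1ad, at 0.68 (SE 0.34, adjusted p = 0.0922) and 0.38 (SE 0.33, adjusted p = 0.328), did not pass.

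Eif5a, whose hypusine-modified protein helps stalled peptide bonds to form, showed the smallest p of all factors in the averaged comparison. It had 65.3 to 97.8 CPM in mutant Cre (median 79.6) and 62.4, 68.1, 86.8, 85.8 and 110.5 CPM in wild-type Cre, against 20.7 to 35.5 CPM in mutant no-Cre (median 29.6) and 20.6 to 45.3 CPM in wild-type no-Cre libraries (median 24.1). The Cre and no-Cre libraries did not overlap. The average effect was 1.33 (SE 0.16, adjusted p = 6.76e-08), and it stayed past the threshold with the oligodendrocyte covariate, at 1.14. Its paralog Eif5a2 had 0.14 (SE 0.24, adjusted p = 0.637), and the log2 ratio of Eif5a2 over Eif5a differed by −1.11 with Cre in the mutant (exact permutation p = 0.0130, adjusted 0.0378) and by −1.33 in the wild type (exact permutation p = 0.0346, adjusted 0.0852). The mutant difference lay between −1.31 and −0.91 over 14 alternatives and did not pass under 10 of them, which left out replicate 1, 2, 3, 4 or 6 of mutant Cre or of mutant no-Cre. Leaving out a library also raises the smallest p that the permutation test can reach, here and for the ratios below. Eif6, which keeps large ribosomal subunits from joining too early, rose by 1.02 (SE 0.32, adjusted p = 0.00895). Eif5b, the GTPase that joins the subunits, was lower, at −0.68 (SE 0.19, adjusted p = 0.00381), and under library totals its average was 0.24, below the median of 0.39 for all genes.

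At the end of translation, Etf1, which reads the stop codon, rose by 0.47 (SE 0.18, adjusted p = 0.0230), though not past the threshold without wild-type Cre replicate 4. Gspt2, one of the pair of eRF3 GTPases, rose by 1.02 (SE 0.26, adjusted p = 0.00136) and Gspt1, the other, had 0.13 (SE 0.16, adjusted p = 0.498). The log2 ratio of Gspt2 over Gspt1 was 0.77 higher with Cre in the mutant (exact permutation p = 0.0108, adjusted 0.0378) and 1.00 higher in the wild type (exact permutation p = 0.0606, adjusted 0.139). The mutant difference lay between 0.41 and 0.92 over 14 alternatives and did not pass under 11 of them. Those were a pseudocount of 1, which gave 0.41, the deposited TPM and leaving out replicate 1, 2, 3, 4 or 5 of mutant Cre or 3, 4, 5 or 6 of mutant no-Cre.

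Per length, the order of levels within the Cre precipitates was led by the same few genes in both genotypes. Eef1a1 came first, with 168.6 ± 65.6 CPM per kilobase (SD, n = 6) in mutant Cre and 104 ± 17.1 (n = 5) in wild-type Cre, followed by Eif1, Eif5a, Eef2 and Eif4a2 in both. Eif1 had 155 ± 25.7 and 103 ± 21.3 CPM per kilobase in mutant and wild-type Cre, within the spread of Eef1a1. Eif5a, Eef2 and Eif4a2 had 80.1 ± 10.7, 63.0 ± 7.69 and 56.8 ± 14.8 CPM per kilobase in mutant Cre and 82.2 ± 18.7, 78.8 ± 13.2 and 70.2 ± 10.2 in wild-type Cre, neighbours that lay within 1 SD of each other in the wild type. Eef1a2 ranked 14 in mutant Cre, with 25.7 ± 6.90 CPM per kilobase, and 9 in wild-type Cre, with 46.6 ± 15.3. Over the 55 tested factors, Spearman's rho between log2 effective length and the average Cre effect was −0.37, a description over genes that share the same libraries. The 34 higher factors had a median effective length of 1.86 kb and the 5 lower ones of 2.37 kb.

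The second comparison, named in the title of the series, asks whether GarsC201R changes what motor neuron ribosomes carry before disease onset. No factor passed in mutant Cre against wild-type Cre libraries under edgeR, where 41 of 12399 genes were called (0.331%, with 0.234% higher and 0.0968% lower). At an unadjusted p under 0.05 there were 16 of 55 factors (29.1%) and 2113 of all genes tested (17.04%). A positive log2 fold change was found for 22 of the 55, and their median was −0.08, against 0.06 for all genes. DESeq2 called 1 factor lower and limma-voom 2 higher and 5 lower, out of 413 and 862 genes called. Without replicate 2 of wild-type Cre, the wild-type library highest in oligodendrocyte markers, edgeR called 2 factors higher and 8 lower, while calls over all genes came to 1057 of 12531 (8.44%), against 41 with it.

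The smallest p was that of Eef1a2, at 30.9 to 68.3 CPM in mutant Cre libraries against 48.9 to 133 CPM in the wild-type Cre group. The groups overlapped through replicate 2 of wild-type Cre, at 48.9 CPM, and without it every mutant library lay below every wild-type one. The difference was −0.93 (SE 0.25, adjusted p = 0.110) with edgeR, −0.95 (adjusted p = 0.0161) with DESeq2, −0.86 (adjusted p = 0.0132) with limma-voom and −1.10 (adjusted p = 0.0108) without wild-type Cre replicate 2. With the oligodendrocyte covariate it was −0.61 and did not pass. The adjusted p under the alternatives ran from 0.0108 to 0.722, the highest under library totals, where the value was 0.14 beside a median of 0.79 for all genes. Within title number 20302 mutant minus wild type was −0.70 and within title number 20401 it was −0.45, with 2 libraries of each genotype in each.

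Eef1a2 over Eef1a1 averaged −2.67 ± 0.90 (SD, n = 6) in mutant Cre and −1.21 ± 0.64 (n = 5) in wild-type Cre, a difference of −1.46 (exact permutation p = 0.0130, adjusted over 32 comparisons 0.0378). The 2 lowest values, −4.06 and −3.52, came from replicates 6 and 4 of mutant Cre, the Cre libraries with the highest oligodendrocyte marker sums at 6989 and 5386 CPM, and the lowest wild-type value, −2.11, came from replicate 2, at 3328 CPM. The difference was −1.21 within title number 20302 and −0.72 within title number 20401, which hold neither of these mutant libraries. Both of these mutant libraries carry title number 18405, which no wild-type Cre library carries. Their low ratios therefore cannot be told apart from that possible batch. Title number 20401 does hold replicate 2 of wild-type Cre. Over 13 alternatives, 11 of which left out a single library, the difference lay between −1.69 and −1.18. Under 10 of them, the deposited TPM included, it no longer passed. Without Cre the genotypes differed by −0.08 (exact permutation p = 0.814, adjusted 0.877).

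**Figure D4:**
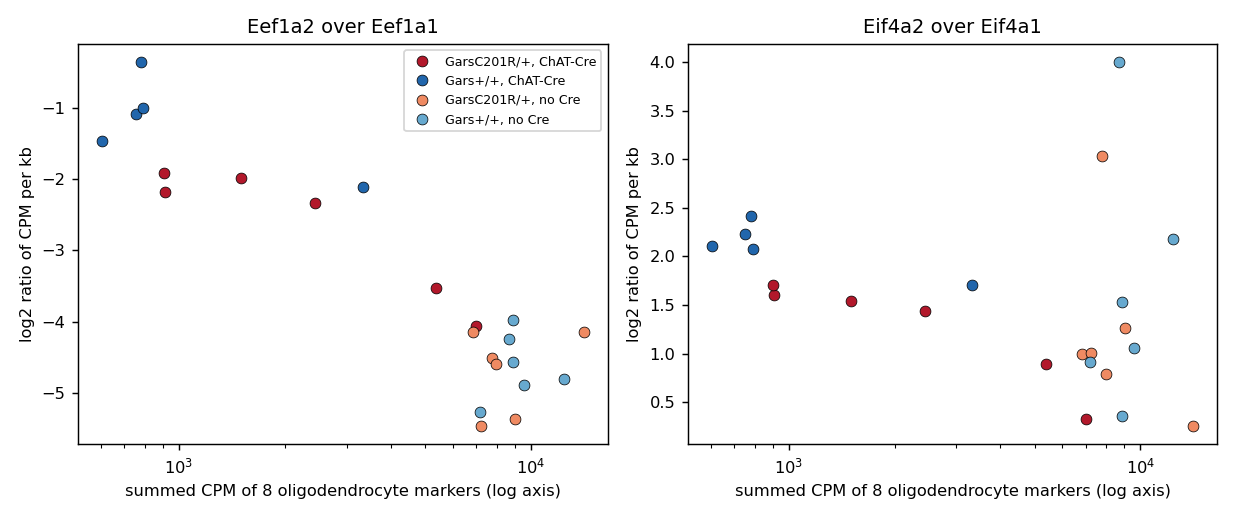
The log2 ratios of Eef1a2 over Eef1a1 and of Eif4a2 over Eif4a1 (CPM per kilobase) are plotted against the summed CPM of 8 oligodendrocyte markers, on a log axis, with 1 point per library. Among the Cre libraries the Eef1a2 ratio is lowest, at −4.06 and −3.52, in the mutant libraries with 6989 and 5386 CPM of these markers, and the 4 wild-type libraries at 606 to 791 CPM lie between −1.47 and −0.36.

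Other paralog pairs also differed. Eif4a2 over Eif4a1 averaged 1.25 ± 0.53 (SD, n = 6) in mutant Cre and 2.11 ± 0.26 (n = 5) in wild-type Cre, a difference of −0.86 (exact permutation p = 0.00866, adjusted 0.0346). Eif4a2 thus made up 70.1% ± 8.13 of the summed level per length of the pair in mutant Cre and 81.1% ± 2.83 in wild-type Cre. The groups touched at replicate 3 of mutant Cre, 1.71, and replicate 2 of wild-type Cre, also 1.71. The lowest mutant values, 0.33 and 0.90, came from replicates 6 and 4, and replicate 2 was the lowest of wild-type Cre. The Cre libraries highest in oligodendrocyte markers were thus again the lowest of their groups. Replicates 6 and 4 are also the mutant Cre libraries of title number 18405. Over 13 alternatives the difference lay between −0.96 and −0.54 and did not pass under 9 of them, the deposited TPM and leaving out replicate 1, 2, 4 or 6 of mutant Cre or 1, 3, 4 or 5 of wild-type Cre. Eif1b over Eif1 averaged −2.01 ± 0.19 in mutant Cre and −1.68 ± 0.12 in wild-type Cre, a difference of −0.34 (exact permutation p = 0.00866, adjusted 0.0346). It lay between −0.38 and −0.28 over 13 alternatives and did not pass under 10 of them, 9 of which left out a single library and so had a coarser test. In this pair the libraries highest in oligodendrocyte markers were not the lowest. Replicate 2 was the highest of wild-type Cre, at −1.48, and replicates 6 and 4 of mutant Cre lay within their group, at −1.88 and −2.20. With the deposited TPM the differences of Eif4a2 over Eif4a1 and of Eif1b over Eif1 became −0.54 and −0.28, and neither passed. The other 5 pairs had adjusted p-values of 0.175 to 0.877 in this comparison.

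By single genes, the factors next in order of p had differences of both signs, none past the threshold. Eif4a1 had 24.6 to 36.0 CPM in mutant Cre and 17.9, 23.4, 23.2, 21.7 and 18.9 CPM in wild-type Cre, and the mutant libraries all lay above the wild-type ones. Its difference was 0.50 (SE 0.16, adjusted p = 0.169). Eif3m had 10.9 to 15.7 CPM in mutant Cre and 29.5, 12.2, 29.5, 22.9 and 15.3 CPM in wild-type Cre, a difference of −0.77 (SE 0.24, adjusted p = 0.158) with overlap at wild-type replicates 2 and 5. Eif3b had −0.53 (SE 0.17, adjusted p = 0.181). The mutant libraries of Eif3h all lay below the wild-type ones, with −0.42 (SE 0.15, adjusted p = 0.199). Eif4g2 had 116 to 162 CPM in mutant Cre and 49.1, 145, 78.4, 94.1 and 90.9 CPM in wild-type Cre, where replicate 2 alone lay within the mutant range, and its difference was 0.60 (SE 0.20, adjusted p = 0.190). Eif1 had 0.56 (SE 0.19, adjusted p = 0.190). Under library totals the signs of Eef1a2, Eif3b and Eif3m turned, at 0.14, 0.30 and 0.24, all below the median of 0.79 for all genes.

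By role, eIF3 had a median of −0.25 over 14 genes with 3 positive, eEF1 a median of −0.45 over 5 genes with 1 positive, eIF2 and eIF2B a median of −0.08 over 8 genes with 2 positive, eIF4 a median of 0.01 over 12 genes with 7 positive and eIF1 and eIF1A a median of 0.23 over 5 genes with 4 positive. These are counts, with no factor called. The integrated stress response is the programme that starts with phosphorylation of eIF2. In the same comparison, 7 of its 15 tested genes were called higher (46.7%, beside 0.234% of all genes). That list was chosen with earlier results of these data known, so the count is not independent support. Eif2s1, the subunit that is phosphorylated, had −0.41 (SE 0.20, adjusted p = 0.305) and the catalytic Eif2b5 −0.08 (SE 0.16, adjusted p = 0.798).

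Without Cre, 0 of 55 factors and 0 of 12588 genes (0%) passed between mutant and wild type with edgeR. At an unadjusted p under 0.05 there were 0 factors and 565 genes, and DESeq2 and limma-voom also called 0 of either. The smallest p among the factors belonged to Eef1b2 at 0.66 (SE 0.32), Eefsec at −1.64 (SE 0.88) and Eif4b at −0.40 (SE 0.22), each with an adjusted p of 0.951. The Eefsec value was −0.52 without wild-type no-Cre replicate 2, which had 7.91 CPM where the others of its group had 0.429 to 2.02 CPM. Eif4b had 21.5 to 30.8 CPM in mutant no-Cre and 31.1 to 39.3 CPM in wild-type no-Cre libraries, which did not overlap.

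**Figure D5:**
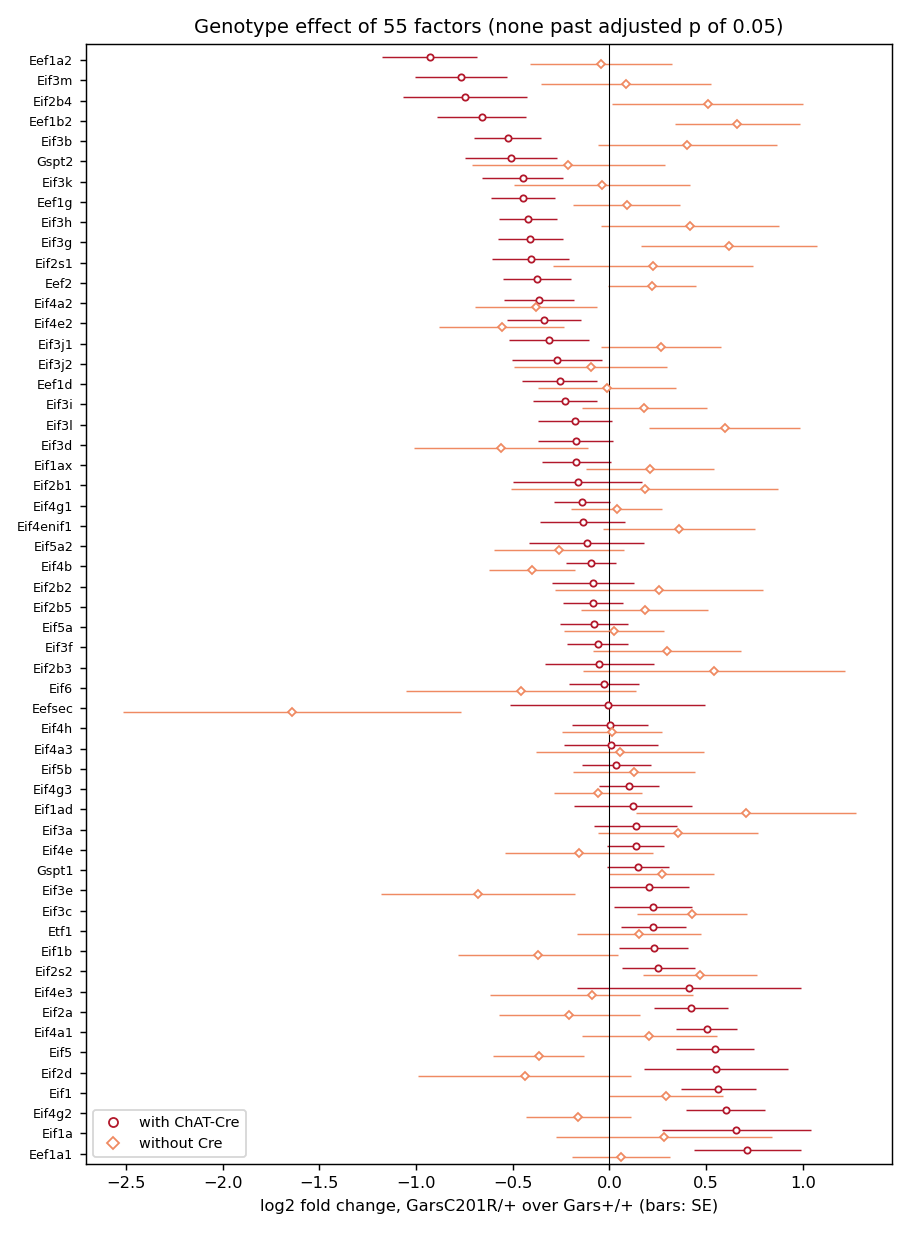
The log2 fold change of each of the 55 tested factors, mutant over wild type, is drawn with its standard error for the Cre libraries (circles) and the no-Cre libraries (diamonds), ordered by the value with Cre. Values with Cre run from −0.93 for Eef1a2 to 0.71 for Eef1a1, and no point passed an adjusted p of 0.05.

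The third comparison asks whether the genotype effect with Cre differs from that without Cre, which is also whether the Cre effect differs between genotypes. The log2 Cre effect, sign included, was lower in the mutant than in the wild type for 37 of 55 factors (67.3%). The same held for 6286 of the 12097 genes tested in both (52%). These counts include genes with a deeper fall in the mutant, such as Eif3a, and are not counts of weaker effects. In both genotypes 9 factors (16.4%) were called higher and 1, Eif3a, lower (1.82%), where 11.6% of all genes were called higher and 15.2% lower in both. By the test of the difference itself, 0 factors passed with edgeR and 0 with DESeq2, where 3 of 14468 genes passed with edgeR (0.0207%, with 0.0138% higher and 0.00691% lower), and 5 factors (9.09%) had an unadjusted p under 0.05, as did 1524 of all genes (10.53%). Their order began with Eef1b2. It had 21.4 to 33.6 CPM in mutant Cre and 53.1, 23.8, 45.1, 52.7 and 30.6 CPM in wild-type Cre, against 12.5 to 34.0 CPM in mutant no-Cre and 9.90 to 17.3 CPM in wild-type no-Cre libraries. The wild-type Cre libraries all lay above the wild-type no-Cre libraries, and the mutant groups overlapped. Its Cre effect was 0.01 (SE 0.29, adjusted p = 0.991) in the mutant and 1.48 (SE 0.27, adjusted p = 0.000438) in the wild type, a difference of −1.32 (SE 0.40, adjusted p = 0.335).

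Eif5 had a difference of the opposite sign. It had 34.4 to 76.6 CPM in mutant Cre (median 60.7) and 33.9, 59.0, 37.7, 30.7 and 28.7 CPM in wild-type Cre, against 19.8 to 33.6 CPM in mutant no-Cre and 26.3 to 43.6 CPM in wild-type no-Cre libraries. All mutant Cre libraries lay above the mutant no-Cre libraries, and the wild-type groups overlapped. The Cre effect was 0.81 (SE 0.21, adjusted p = 0.00787) in the mutant and 0.05 (SE 0.23, adjusted p = 0.884) in the wild type, a difference of 0.90 (SE 0.31, adjusted p = 0.354). Within title number 18405 alone, mutant Cre replicates 4 and 6 against mutant no-Cre replicate 2, the mutant effect of Eif5 was 0.18. limma-voom called both, Eef1b2 at −1.37 (adjusted p = 0.0386) and Eif5 at 1.14 (adjusted p = 0.0267). Eef2, the third in order, had −0.60 (SE 0.27, adjusted p = 0.447).

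Of genes that regulate or assist the factors, 26 of the 27 matched were tested, and 11 were higher and 3 lower in the averaged Cre effect, a share of 53.8% beside 56.8% of all genes. Cyfip1, a partner of eIF4E, and Eif2ak2, the eIF2 kinase activated by double-stranded RNA, had −1.60 (SE 0.21, adjusted p = 2.60e-07) and −1.995 (SE 0.27, adjusted p = 7.59e-07). Paip2, which holds back the poly(A)-binding protein, and Mcts1, which works with Denr in reinitiation, had 0.90 (SE 0.14, adjusted p = 5.00e-06) and 1.89 (SE 0.32, adjusted p = 1.44e-05). Between genotypes with Cre none of them passed with edgeR, and the smallest p was that of Mknk1, a kinase of eIF4E, at 1.22 (SE 0.30, adjusted p = 0.0939). Of 10 mitochondrial translation factors, 4 were higher and 1 lower with Cre, also near that share. Mrrf, the recycling factor, and Tufm, the elongation factor, had 1.68 (SE 0.27, adjusted p = 8.52e-06) and 1.41 (SE 0.23, adjusted p = 1.20e-05). The list of 10 factors with TOP mRNAs had 7 higher and 2 lower with Cre, beside the same 56.8%. Between genotypes with Cre, 6 of these 10 and 17.04% of all genes had an unadjusted p under 0.05, and the 10 had a median of −0.32, with none past the threshold in edgeR.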

How the data were processed

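RNA bound by HA-tagged ribosomes was sequenced from 23 libraries. The authors deposited, per the file headers, RSEM gene tables with expected counts, TPM, FPKM and effective lengths for each library, not pooled. Bowtie2 2.2.0 and RSEM 1.2.12 are named in the submitters' processing notes, and the genome build is not given in the sources used here. The deposited expected counts were rounded to whole numbers for testing. The deposited TPM served as an alternative for ratios, and the deposited FPKM was not used.

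Groups followed the labels. edgeR 4.0.16 (R 4.3.3; low counts removed by filterByExpr at 10 per library and 15 in total, scaled by TMM, quasi-likelihood test, Benjamini-Hochberg over all genes tested, threshold 0.05) was fitted to the groups compared, or to all 23 libraries for the averaged Cre effect and the difference of genotype effects. The scripts were tested on simulated data. CPM was scaled by TMM over all libraries, with Gm26924, Gm15662, Lars2, mt-Rnr1 and mt-Rnr2, called ribosomal RNA-like here, kept in the totals. Ratios of 8 paralog pairs used CPM per kilobase of effective length with 0.1 added, and two-sided exact permutation tests (scipy 1.17.1) adjusted over 32 comparisons. Alternatives used DESeq2 1.42.0 and limma 3.58.1. Gene positions came from GENCODE on GRCm38 by Ensembl identifier and start-site windows from RefSeq. Libraries of a group differed beyond sampling noise, with a chi-square per degree of freedom of at least 8.53 over 55 pairs. That check kept the ribosomal RNA-like genes and cannot show whether libraries came from separate animals. Each library counted once.

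The members and gene lists were chosen with earlier results of these data known. Values by library were given by rule for the members with the 6 smallest p between genotypes with Cre, the 8 largest rises and falls with Cre, the 3 smallest p in the other genotype tests, the paralog pairs, Eef2, Etf1 and the eIF2 and eIF2B genes, and other members are given by their fold changes. Eif3h between genotypes was named after its values were seen.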

Additional observations from a re-analysis of the deposited data

Results flagged for a closer look

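A library was singled out where its gap to the nearest other library of its group was large against the range of the group. Of 156 combinations of gene and group tested, 16 were picked, where chance gives about 1 in 20. In wild-type no-Cre replicate 2, Eef1a1 was highest at 318 CPM (the others 164 to 212), Eefsec at 7.91 CPM (0.429 to 2.02), Eif2s2 at 37.4 CPM (15.0 to 22.98) and Eif4a2 at 125 CPM (35.1 to 48.6), and this library also had the highest cholinergic marker sum of its group, 79.0 CPM. In mutant no-Cre replicate 5, the shallowest library with 3820 factor counts, Eef1a1 was lowest at 135 CPM (214 to 256), Eif1b at 0.985 CPM (9.05 to 12.1) and Eif3h at 0.492 CPM (7.35 to 11.2), and Eif1a was highest at 11.3 CPM (1.63 to 3.83).

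The others came from 7 further libraries. Eefsec and Eif2s1 were highest in mutant Cre replicate 3, at 4.70 CPM (0.985 to 1.95) and 12.4 CPM (8.63 to 10.0). Eif1b was highest in mutant Cre replicate 6, at 38.2 CPM (24.9 to 29.8). Eif4g3 was lowest in wild-type Cre replicate 1, at 48.9 CPM (78.1 to 88.6). Eif4a1 was lowest in mutant no-Cre replicate 4, at 5.07 CPM (15.5 to 19.3). Eif4g3 was highest in wild-type no-Cre replicate 1, at 97.5 CPM (64.4 to 73.5), Gspt2 in replicate 3, at 6.86 CPM (1.73 to 2.73), and Eif3g in replicate 6, at 9.70 CPM (2.23 to 4.70).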

How the results depend on the processing

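No paired analysis was possible because replicate numbers follow accession order and pair nothing. The leading number of the title, a possible batch, was used as a block in its place. Precision is limited by depth, since ribosomal RNA-like genes took up to 95.6% of a library, and a shared batch, sex or glial content could not be told apart from group in full. The causes of the changes below were not tested.

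With the title-number block, 16 of 39 averaged calls and 3 of 29 in the wild type were lost. In the mutant alone that fit keeps only title number 18405, with 1 no-Cre library, so its calls are not counted. Leaving out a single library ended at least once 6 of the 39 averaged calls, 6 of 15 in the mutant and 10 of 29 in the wild type. Between genotypes with Cre, 0 factors were called. limma-voom called 2 higher and 5 lower, DESeq2 1 lower, and leaving out single libraries gave 0 to 2 higher and 0 to 8 lower. Of all genes, 6.95% were called by limma-voom, 3.33% by DESeq2 and 0.0779% to 8.44% without single libraries. In the wild type, 26 higher and 3 lower with Cre became 1 and 0 under library totals and 0 and 0 with the oligodendrocyte (glial) covariate. Of all genes, 20% were higher and 25.9% lower in the fit above, and 3.26% and 4.02% under library totals. With the glial covariate, which largely repeats the Cre groups, 0.0721% were higher and 0% lower. In the mutant, 13 higher became 31 under library totals, 26 with DESeq2, 30 with limma-voom, 20 without ribosomal RNA-like genes, 22 with the title-number block, 3 with the glial covariate and 8 to 26 without single libraries. The 2 lower became 1 under RLE size factors, without ribosomal RNA-like genes and with the Xist covariate, 0 under library totals and the glial covariate, and 1 to 3 without single libraries. Lower were 19.2% of all genes in the fit above. That share was 17.5%, 17.6% and 18.4% under the first 3 of these, 2.16% under library totals and 5.75% with the glial covariate. On average, 34 higher became 5 with the glial covariate and 23 with the block, and 5 lower became 3 with no filter or with the block and 0 under library totals or the glial covariate. Of all genes, 22.1% were higher in the fit above, 5.10% with the glial covariate and 17.2% with the block. Lower were 34.7% in the fit above, 26.2% with no filter, 27.6% with the block, 9.31% under library totals and 7.13% with the glial covariate. For the difference of genotype effects, limma-voom called 1 higher and 1 lower, where it called 1.17% of all genes.

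Signs turned under library totals for Eef1a2 (0.14), Eif3b (0.30) and Eif3m (0.24) between genotypes with Cre, Eif3a (0.26) and Eif5b (0.88) with Cre in the mutant, Eef1d (0.40) and Eif5b (0.24) on average, and Eef1b2 (0.11) and Eef2 (0.81) in the difference. That scaling moved the median of all genes to 0.79, 1.13, 0.39 and 1.18 in these comparisons, and apart from Eef1d each gene lay below it. With the glial covariate they turned in the wild type for Eef1b2 (−0.19), Eif2b4 (−1.81), Eif2s2 (−0.33) and Eif4g2 (0.43), and with the block for Eif5b in the mutant (0.18) and Eef1d on average (0.070). With deposited TPM the Cre difference of Eif4a2 over Eif4a1 was −0.22 in the mutant and −0.23 in the wild type, that of Eif4e2 over Eif4e 0.27 in the wild type and that of Eif1ax over Eif1a 0.0382 in the mutant. Without single libraries, ratios that were not called crossed 0. These were Eif4a2 over Eif4a1 with Cre in the mutant (−0.16 to 0.39) and between no-Cre genotypes (−0.81 to 0.0159), Eif5a2 over Eif5a between Cre genotypes (−0.28 to 0.20), Eif1ax over Eif1a with Cre in the wild type (−0.10 to 0.62) and between no-Cre genotypes (−0.49 to 0.55), and, between no-Cre genotypes, Eef1a2 over Eef1a1 (−0.20 to 0.0761) and Eif4g3 over Eif4g1 (−0.24 to 0.11).

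The called genotype ratios with Cre kept their sign under all 13 alternatives and lost the threshold under 10 for Eef1a2 over Eef1a1, 9 for Eif4a2 over Eif4a1 and 10 for Eif1b over Eif1. Most of these alternatives left out a library, which also raises the smallest p that the permutation test can reach.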
